A study of Mus musculus with 9 samples.

Results

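The mitochondrial carrier family (Slc25) comprises membrane proteins that move metabolites, nucleotides and cofactors across the mitochondrial inner membrane. Its transcripts were examined in mouse embryonic stem (ES) cells after induced deletion of Zbtb11, a zinc finger and BTB domain protein of the nucleus. The members were all protein-coding genes whose symbol starts with Slc25a, apart from 1 symbol that the rule leaves out. They numbered 46 among 20175 protein-coding gene rows in the count files. Of these, 44 had enough reads to be tested. Slc25a21, the oxodicarboxylate carrier, had 7 counts over all libraries and Slc25a54 had 1, and neither was tested.

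Carrier proteins share a fold of repeated membrane-spanning segments and mostly work by exchange, taking 1 solute in for another let out. They are encoded in the nucleus, made in the cytosol and inserted into the inner membrane by the TIM22 translocase after passage through the outer membrane and a relay of small Tim chaperones. Among them are the ADP/ATP and phosphate carriers that feed ATP synthase, the carriers of the malate-aspartate shuttle, the citrate carrier that supplies cytosolic acetyl groups, and importers of cofactors, iron and glutathione. A few members sit in other membranes, such as Slc25a17 in peroxisomes and Slc25a46 in the mitochondrial outer membrane.

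RNA was sequenced in 9 libraries, 3 in each of 3 groups, all from E14-derived ES cells grown without feeders on gelatin in serum with LIF and collected at 72 h. The EtOH control carried Zbtb11 lox/lox and ERt2-Cre at Rosa26, and received the carrier ethanol. The group labelled Zbtb11 KO, called the labelled KO here, had the same genotype and received 250 nM 4-hydroxytamoxifen (4OHT), which switches on ERt2-Cre. The 4OHT control was Zbtb11 WT/WT with a WT Rosa26 locus and received 4OHT, so it differs from the labelled KO in genotype and from the EtOH control in both genotype and drug. The labels do not say whether replicates were separate cultures or whether a genotype is 1 clone.

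The targeted gene was not lower in the libraries labelled KO. Zbtb11 was at 377 ± 8.47 CPM (gene counts that edgeR scales to a common library size; SD, n = 3 here and for every mean below) in the labelled KO, 355 ± 6.70 in the EtOH control and 368 ± 9.31 in the 4OHT control. Its log2 fold change against the EtOH control was 0.09 (SE 0.045; edgeR adjusted p = 0.174, and 0.032 with the replicate number as a block). The labels do not say which exons are flanked by loxP sites, so a count over the whole gene may not test the deletion. Gene counts summed to between 16909139 and 23544893 per library. Reads assigned to no gene made up 32.7% to 33.8% of a labelled KO library, 26.4% to 28.7% of an EtOH control library and 26.7% to 27.5% of a 4OHT control library. The 8 ES cell markers summed to 3760 to 4080 CPM in the labelled KO, 3930 to 4120 in the EtOH control and 4090 to 4660 in the 4OHT control, so every labelled KO library was below every 4OHT control library. Of them, Esrrb was called lower in the labelled KO against both controls (log2 fold change -0.235 and -0.264, edgeR adjusted p = 0.031 and 0.0123), beside 9.60% of all genes. Pou5f1, Zfp42 and Dppa5a were called lower against the 4OHT control, so 4 of 8 were lower there, beside 19.8% of all genes. Nanog, Sox2, Klf4 and Tdgf1 were called in neither comparison. Against the EtOH control the 8 ran from -0.235 to 0.248 on the log2 scale (median -0.005). Against the 4OHT control they ran from -0.394 to 0.4 (median -0.204). The block called 1 higher and 2 lower against the EtOH control, and 1 and 6 against the 4OHT control. Markers of primitive endoderm summed to 10.8 to 14.2 CPM in the labelled KO, 6.17 to 9.42 in the EtOH control and 6.73 to 7.64 in the 4OHT control, with 3 of 5 (Gata4, Gata6 and Sox17) called higher against both, beside 8.89% of all genes. The 3 trophoblast markers summed to 2.29 to 3.52 CPM in the labelled KO and 1.59 to 2.18 in the controls, and the 5 fibroblast markers to 18.6 to 18.8 in the labelled KO, 15.8 to 18.7 in the EtOH control and 14 to 15 in the 4OHT control. Of the trophoblast markers, Krt7 was called higher against both controls, beside 8.89% of all genes. Elf5 was called higher against the 4OHT control only, and Cdx2 in neither comparison. Of the fibroblast markers, Col1a1 and Col1a2 were called higher and Thy1 lower against the 4OHT control. The 2 neural markers summed to 15.2 to 17.6 CPM in the labelled KO, 15.7 to 20.8 in the EtOH control and 16.9 to 22.8 in the 4OHT control. The 3 mesoderm markers summed to 4.91 to 5.86, 4.06 to 5.51 and 5.4 to 6.87 CPM in these groups. The neural marker Pax6 was called lower against the 4OHT control. Labelled KO replicate 3 stood apart from its 2 partners, with a chi-square of gene counts per degree of freedom of 17.3 and 18.5 against 5.4 to 8.29 for the other pairs. The part of these differences in the results was not tested, and in bulk RNA fewer cells of a type and less RNA per cell cannot be told apart.

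On the scale of CPM per kilobase of exon, a few carriers stood far above the rest of the family. In the EtOH control Slc25a5, an ADP/ATP carrier found in many dividing cells, stood at 286 CPM per kilobase, Slc25a4, the ADP/ATP carrier best known from heart and muscle, at 83.8, and Slc25a39, a mitochondrial glutathione importer, at 76.5. The phosphate carrier Slc25a3 followed at 61.3, then the oxoglutarate/malate carrier Slc25a11 at 36.5, the citrate carrier Slc25a1 at 31.6 and the aspartate/glutamate carrier Slc25a13 at 27.04. Slc25a17 and the pyrimidine nucleotide carrier Slc25a36 closed the list of 9 members over 10 CPM per kilobase. A further 26 members lay between 1 and 10, and 11 lay under 1. Each of the first 9 members had all its EtOH control libraries above those of the member next in order, while over the whole order 19 of 45 neighbouring pairs were apart in this way and the others overlapped. With the longest transcript as the length, Slc25a39 stood at 125 and Slc25a4 at 102, so the order of these 2 depends on the length used. Of the 50-base words in Slc25a5 transcripts, 33.8% also occur in transcripts of other genes on the same strand, led by the annotated copies Gm5560 and Gm5529, so its counts are uncertain. For Slc25a35 and Slc25a33, 25% and 12.6% of words match a transcript on the opposite strand, and they are uncertain too.

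**Figure D1:**
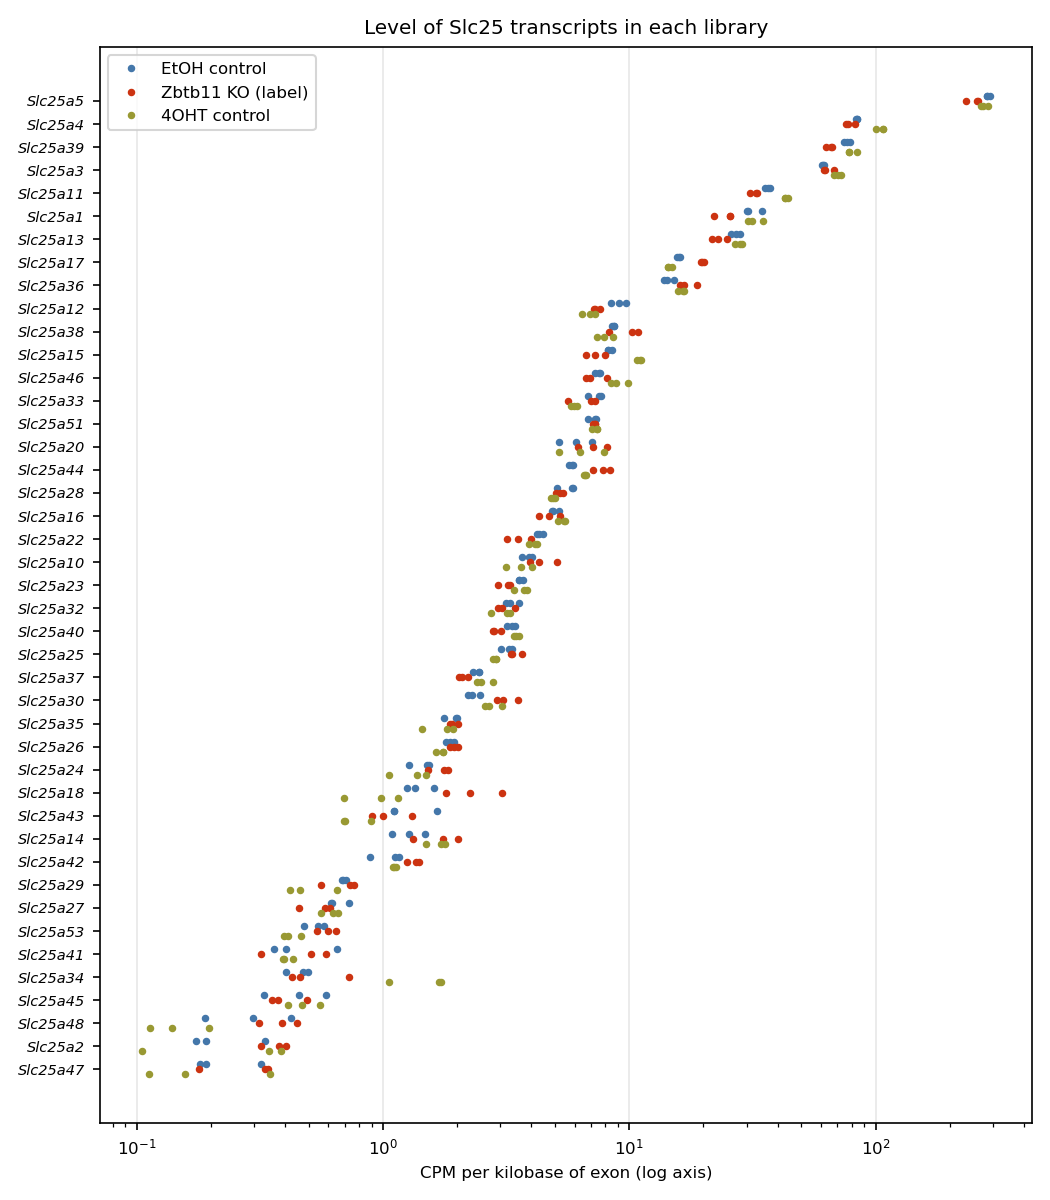
Level of 43 tested carriers in each of the 9 libraries, in CPM per kilobase of exon on a log axis, with 1 point per library coloured by group and carriers ordered by their EtOH control mean. Slc25a5 at 286 stands above Slc25a4 at 83.8 and Slc25a39 at 76.5, and the 3 4OHT control points of Slc25a34 lie to the right of its other points.

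Against the EtOH control, 5 of 44 tested carriers rose and 9 fell in the labelled KO (edgeR, adjusted p under 0.05 over 16224 genes), which is 31.8% of the members beside 27.2% of all genes tested. By direction, 13% of all genes rose and 14.2% fell. The changes were small, from -0.37 for Slc25a1 to 0.75 for Slc25a18 on the log2 scale, and no carrier reached 2-fold. In CPM, 6 carriers had all 3 labelled KO libraries above all 3 EtOH control libraries and 13 had them below, beside 21.3% and 20.5% of all genes. The members' median log2 fold change was -0.02 beside 0.01 over all genes, and their median absolute value was 0.20 beside 0.20. Scaled by library totals alone, the members' median was 0.05 beside 0.085 over all genes, so both medians were higher than in the main fit. The split was then 6 risen and 4 fallen, so the surplus of fallen carriers does not hold under that scaling. The share of all genes called under it is not given here. When the replicate number entered the model as a block, 9 were called higher and 11 lower, adding Slc25a14, Slc25a20, Slc25a38 and Slc25a42 to the risen and Slc25a4 and Slc25a23 to the fallen, which is 45.5% of the members beside 42.8% of all genes under the block (20.4% higher and 22.3% lower). Without labelled KO replicate 3 the counts were 7 and 6, and the share of all genes called in that fit is not given here.

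Against the 4OHT control, 8 carriers rose and 13 fell, 47.7% of the members beside 38.9% of all genes (19.1% higher and 19.8% lower). The members' median log2 fold change was 0.09 and that of all genes 0.02. The CPM of the 2 groups were apart with the labelled KO higher for 11 carriers and lower for 13, beside 24.5% and 23.7% of all genes. Library totals alone gave 13 risen and 9 fallen, with a median of 0.172 for the members and 0.104 over all genes. DESeq2 gave 5 and 12, and the fit without labelled KO replicate 3 gave 8 and 12. The shares of all genes called under these fits are not given here. The block gave 11 and 15 beside 25.5% and 25.9% of all genes. The 2 comparisons share the labelled KO libraries. In both of them 7 carriers fell, 15.9% of the members beside 9.60% of all genes, and 3 rose, 6.82% beside 8.89%. The 7 were Slc25a1, Slc25a5, Slc25a11, Slc25a13, Slc25a15, Slc25a39 and Slc25a40, and the 3 were Slc25a17, Slc25a18 and Slc25a44. Library totals alone lost the calls of Slc25a5, Slc25a11, Slc25a15 and Slc25a40 against the EtOH control. The fit without labelled KO replicate 1 lost those of Slc25a5, Slc25a13, Slc25a15, Slc25a40 and Slc25a18 there, and that of Slc25a44 against the 4OHT control. The counts of 7 and 3 therefore do not hold under every fit. No carrier rose in 1 comparison and fell in the other, and 19 were called in neither.

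**Figure D2:**
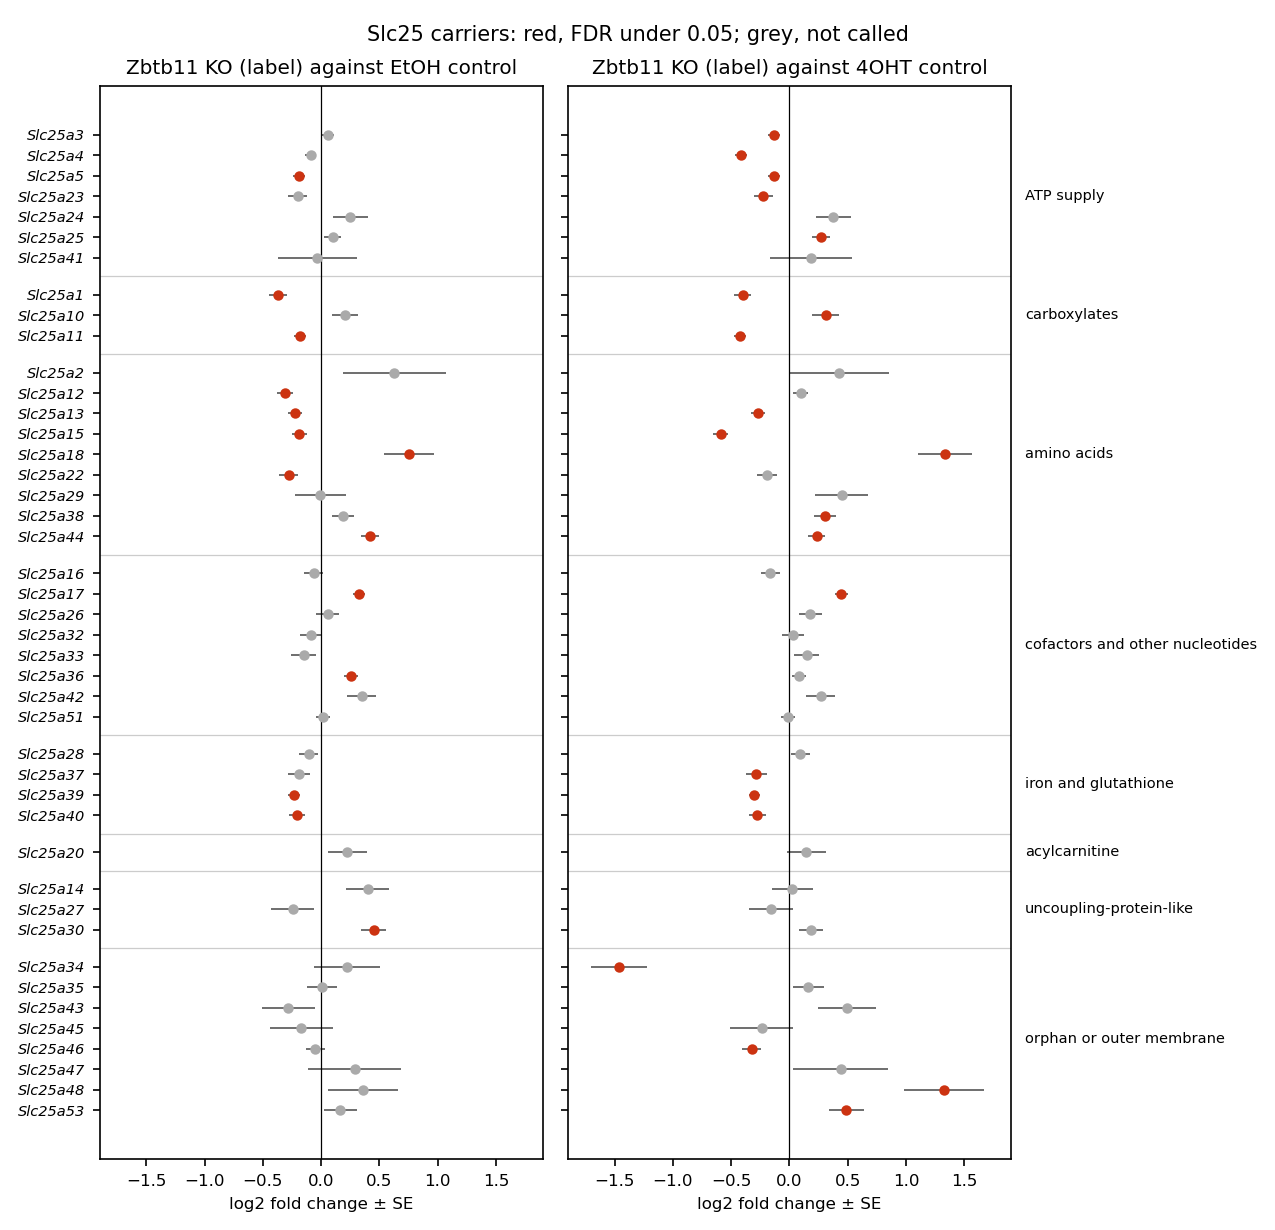
Log2 fold change ± SE of 43 tested carriers in the labelled KO against the EtOH control (left) and against the 4OHT control (right), grouped by substrate, with carriers under an adjusted p of 0.05 in red and the others in grey. The glutathione carriers Slc25a39 and Slc25a40 are red and left of 0 in both panels, and Slc25a17 is red and right of 0 in both.

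Carriers of carboxylates link the citric acid cycle to the cytosol, and 2 of the 3 tested fell against both controls, as did 9.60% of all genes. Slc25a1, which exports citrate for fatty acid and sterol synthesis, was at 64.8, 65.95 and 74.6 CPM in the EtOH control, 47.8, 55.3 and 55.4 in the labelled KO, and 67.9, 65.9 and 75.4 in the 4OHT control. All 3 labelled KO libraries were below all 6 control libraries. It fell by 22.8% against the EtOH control (log2 fold change -0.37, SE 0.076; edgeR adjusted p = 0.00189) and fell by 24.3% against the 4OHT control (-0.40, SE 0.076; adjusted p = 0.00059). The call held under all 16 alternatives in both comparisons, with adjusted p up to 0.0124 and 0.00438. Slc25a11, the oxoglutarate/malate exchanger of the malate-aspartate shuttle, was at 79.2, 77.3 and 75.5 CPM in the EtOH control, 69.4, 70.3 and 65.3 in the labelled KO, and 90.5, 93.6 and 90.6 in the 4OHT control. The 3 groups did not overlap, with the labelled KO lowest and the 4OHT control highest. Its log2 fold change was -0.18 (SE 0.052; adjusted p = 0.0175) against the EtOH control and -0.42 (SE 0.051; adjusted p = 1.02e-05) against the 4OHT control. The first call was lost without EtOH control replicate 1 (adjusted p = 0.0588), without labelled KO replicate 3 (0.0615) and with library totals alone (0.151). Slc25a10, the dicarboxylate carrier, rose against the 4OHT control (log2 fold change 0.31; adjusted p = 0.0405), with overlapping libraries. That call was lost in 8 of 16 alternatives, including the fits without EtOH control replicate 2 or 3, labelled KO replicate 1 (0.219) or 2, or 4OHT control replicate 1 or 3. It was at 0.20 against the EtOH control (adjusted p = 0.197).

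The RefSeq promoter windows of Slc25a1 and Slc25a17 (build GRCm38.p6, 300 bases on the minus strand, 5′ to 3′) are shown because these carriers had the lowest adjusted p against the EtOH control among those that fell and those that rose. They were chosen after their values were seen. Both strands were searched for CCGGAAG, the core of ETS factor sites, and for GCGCATG, the core of sites for NRF1, factors known from promoters of mitochondrial genes. Capitals mark the match.
Slc25a1, chr16:17928170-17928469: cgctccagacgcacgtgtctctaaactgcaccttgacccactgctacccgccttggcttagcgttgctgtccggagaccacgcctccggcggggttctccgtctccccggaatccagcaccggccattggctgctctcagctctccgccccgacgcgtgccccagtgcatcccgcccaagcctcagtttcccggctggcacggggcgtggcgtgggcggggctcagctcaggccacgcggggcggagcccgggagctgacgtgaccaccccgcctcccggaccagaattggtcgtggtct
Slc25a17, chr15:81360716-81361015: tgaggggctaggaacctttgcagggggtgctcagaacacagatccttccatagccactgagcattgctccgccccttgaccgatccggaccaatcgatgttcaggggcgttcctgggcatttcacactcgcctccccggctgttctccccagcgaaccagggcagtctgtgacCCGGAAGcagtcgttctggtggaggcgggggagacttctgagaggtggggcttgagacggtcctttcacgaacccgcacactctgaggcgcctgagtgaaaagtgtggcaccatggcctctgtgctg
The ETS core occurs in 8.86% of 32851 RefSeq promoter windows of this length, in 7 of the 35 carriers with a window, and, among the 9 with a window that changed the same way against both controls, in Slc25a17 alone. It starts at base 174 of that window, on the strand shown. The NRF1 core occurs in 3.91% of all windows, in 1 carrier and in none of the 9. The Slc25a1 window holds neither and has a GC content of 69.3%, beside 60.7% for Slc25a17.

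Amino acid carriers changed in both directions: of 9 tested, 2 rose and 4 fell against the EtOH control (66.7% beside 27.2% of all genes), and 3 rose and 2 fell against the 4OHT control (55.6% beside 38.9%). The replicate block gave 3 and 4 against the EtOH control (77.8% beside 42.8%) and 3 and 3 against the 4OHT control (66.7% beside 51.4%). Without labelled KO replicate 1, the calls of Slc25a13, Slc25a15, Slc25a18 and Slc25a22 against the EtOH control were lost. With 9 members these counts are a description only. Slc25a12 and Slc25a13 exchange aspartate for glutamate, the irreversible step of the malate-aspartate shuttle. Slc25a13 was at 98.4, 107 and 103 CPM in the EtOH control, 82.3, 87.4 and 94.9 in the labelled KO, and 102, 109 and 107 in the 4OHT control. Every labelled KO library was below every control library. The log2 fold change was -0.22 (SE 0.060; adjusted p = 0.0122) against the EtOH control and -0.27 (SE 0.060; adjusted p = 0.00239) against the 4OHT control. The first call was lost without EtOH control replicate 2 (0.063) or labelled KO replicate 1 (0.0614). Slc25a12 was at 66.7 ± 4.58 CPM in the EtOH control, 53.9 ± 1.56 in the labelled KO and 50.4 ± 3.07 in the 4OHT control, so both groups that received 4OHT were below the EtOH control. It fell against the EtOH control in the labelled KO (log2 fold change -0.31; adjusted p = 0.00233) and in the 4OHT control (-0.41; adjusted p = 0.000399), and was at 0.10 between them (adjusted p = 0.271). Per kilobase, Slc25a12 made up 25.1% of the pair in the EtOH control, 24.1% in the labelled KO and 19.8% in the 4OHT control.

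Slc25a15 exchanges ornithine and citrulline, a step of the urea cycle. Its level was 45.97, 48.02 and 46.3 CPM in the EtOH control, 37.7, 44.85 and 40.9 in the labelled KO, and 60.6, 62.7 and 62.3 in the 4OHT control. The groups did not overlap, and the 4OHT control was the highest. The log2 fold change of the labelled KO was -0.19 (SE 0.066; adjusted p = 0.0465) against the EtOH control and -0.59 (SE 0.065; adjusted p = 3.68e-06) against the 4OHT control. The first call was lost in 11 of 16 alternatives, with adjusted p up to 0.192, and among them were the fits without any 1 EtOH control library, those without labelled KO replicate 1 or 3, and those that left out 4OHT control replicate 2 or 3. The other ornithine carrier, Slc25a2, was at 0.319 ± 0.119 CPM in the EtOH control and 0.503 ± 0.0588 in the labelled KO and was not called.

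The glutamate importers Slc25a18 and Slc25a22 were called in opposite directions against the EtOH control. Slc25a18 was at 3.10, 2.58 and 2.39 CPM in the EtOH control, 5.81, 3.45 and 4.32 in the labelled KO, and 1.33, 1.88 and 2.21 in the 4OHT control. The labelled KO libraries were above all controls, with replicate 1 the highest. Its log2 fold change was 0.75 (SE 0.215; adjusted p = 0.0167) against the EtOH control, the highest of the carriers that rose there, and 1.335 (SE 0.230; adjusted p = 0.000276) against the 4OHT control. The first call was lost without labelled KO replicate 1 (log2 fold change 0.51, adjusted p = 0.123), EtOH control replicate 2 (0.0677) or EtOH control replicate 3 (0.0592). Slc25a22 was at 21.4 ± 2.33 CPM in the labelled KO, 25.96 ± 0.747 in the EtOH control and 24.5 ± 0.961 in the 4OHT control. It fell against the EtOH control (log2 fold change -0.28, SE 0.083; adjusted p = 0.0203, and 0.0551 to 0.0718 without EtOH control replicate 1 or 2 or labelled KO replicate 1 or 3, and 0.083 with library totals alone), and against the 4OHT control it was at -0.19 (adjusted p = 0.0795, and 0.0178 with the block). Per kilobase, Slc25a18 made up 24.4 ± 1.94% of the pair in the EtOH control, 39.6 ± 7.66% in the labelled KO and 18.7 ± 4.36% in the 4OHT control.

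Slc25a44, which imports branched-chain amino acids, was at 20.3, 21.1 and 21.04 CPM in the EtOH control, 29.8, 28.02 and 25.4 in the labelled KO, and 23.5, 23.85 and 23.6 in the 4OHT control. The 3 groups did not overlap, and the labelled KO was the highest. It rose by 33.6% against the EtOH control (log2 fold change 0.42, SE 0.075; adjusted p = 0.000755, at most 0.00795 under any alternative). Against the 4OHT control the log2 fold change was 0.23 (SE 0.075; adjusted p = 0.0215), a call lost in 7 of 16 alternatives, including the fits without labelled KO replicate 1 (0.123) or 2 (0.0588) and without any 1 of the 4OHT control libraries (0.0501 to 0.0573). Slc25a38, the glycine importer that feeds heme synthesis, rose against the 4OHT control (log2 fold change 0.30; adjusted p = 0.0193, lost without labelled KO replicate 1 or 2 or 4OHT control replicate 1 or 3, at up to 0.107) and was at 0.19 against the EtOH control (adjusted p = 0.152, and 0.0342 with the block). Slc25a29, which carries basic amino acids, was called in neither.

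**Figure D3:**
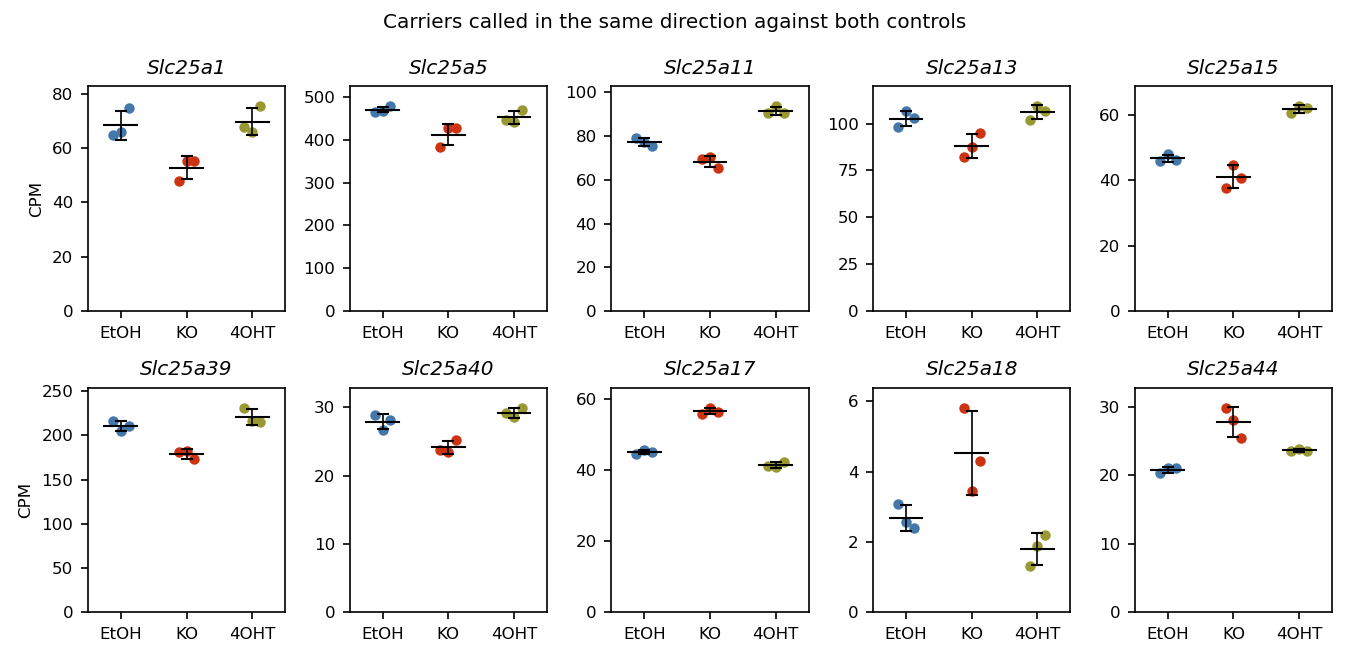
CPM in each library, with mean ± SD, of the 10 carriers called in the same direction in the labelled KO against both controls, in the EtOH control, the labelled KO and the 4OHT control, with each axis starting at 0. Slc25a1 lies at 47.8 to 55.4 in the labelled KO and at 64.8 or above in the controls, and Slc25a17 at 55.7 to 57.4 beside 45.6 or below.

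Among the 4 carriers of iron and glutathione, 2 were called against the EtOH control and 3 against the 4OHT control, all of them lower. Over all genes 14.2% and 19.8% were called lower and 13% and 19.1% higher, and with 4 members these counts are a description only. Slc25a39 and Slc25a40 import glutathione, which the matrix cannot make. Slc25a39 was at 217, 205 and 210.3 CPM in the EtOH control, 182, 183 and 173 in the labelled KO, and 231, 216 and 215 in the 4OHT control. The labelled KO libraries lay below all 6 controls. It fell by 15% (log2 fold change -0.23, SE 0.050; adjusted p = 0.00289) against the EtOH control and fell by 18.8% (-0.30, SE 0.050; adjusted p = 0.000225) against the 4OHT control, and both calls held under all 16 alternatives. The less abundant Slc25a40 was at 28.9, 26.6 and 28.1 CPM in the EtOH control, 23.7, 23.5 and 25.2 in the labelled KO, and 29.1, 28.5 and 29.9 in the 4OHT control. It too was below every control library, with log2 fold changes of -0.21 (SE 0.069; adjusted p = 0.0342) and -0.27 (SE 0.069; adjusted p = 0.00505). The call against the EtOH control was lost in 7 of 16 alternatives, including the fits without EtOH control replicate 1 (0.115) or 3 (0.0852) and without labelled KO replicate 1 (0.0923) or 2 (0.0683). Per kilobase, Slc25a40 made up 4.16% of the pair in the EtOH control, 4.24% in the labelled KO and 4.17% in the 4OHT control. Of the mitoferrins, which import iron, Slc25a37 fell against the 4OHT control (log2 fold change -0.285; adjusted p = 0.0213, lost with library totals alone and without labelled KO replicate 1 or 2 or 4OHT control replicate 3, at up to 0.111) and was at -0.19 against the EtOH control (adjusted p = 0.135). Slc25a28 was called in neither.

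In the group that serves ATP supply, 1 of 7 carriers fell against the EtOH control (14.3% beside 27.2% of all genes), and 4 fell and 1 rose against the 4OHT control (71.4% beside 38.9%). The replicate block gave 3 fallen against the EtOH control (42.9% beside 42.8% of all genes). Slc25a5, which exports ATP in exchange for ADP, was at 465, 468 and 478 CPM in the EtOH control, 383, 427 and 426 in the labelled KO, and 447, 441 and 469 in the 4OHT control. The labelled KO libraries were below all controls, and replicate 1 was the lowest. The log2 fold change was -0.19 (SE 0.051; adjusted p = 0.0119) against the EtOH control, a call lost without labelled KO replicate 1 (0.056) and with library totals alone (0.0646). Against the 4OHT control it was -0.13 (SE 0.051; adjusted p = 0.0496), and that call was lost in 11 of 16 alternatives, among them the fits without any 1 control library and without labelled KO replicate 1, with adjusted p up to 0.398.

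Slc25a4, the other ADP/ATP carrier, was at 198, 198 and 195 CPM in the EtOH control, 182, 194 and 179 in the labelled KO, and 236, 251 and 252 in the 4OHT control. The 4OHT control stood above both other groups, and the labelled KO lay just below the EtOH control. Against the EtOH control the labelled KO was at -0.09 (SE 0.050; adjusted p = 0.197, and 0.0466 with the block). Against the 4OHT control Slc25a4 fell by 24.9% (log2 fold change -0.41, SE 0.050; adjusted p = 9.95e-06), and the 4OHT control itself was 25% above the EtOH control (log2 fold change 0.32; adjusted p = 0.000309). Slc25a4 made up 22.7 ± 0.394% of the ADP/ATP pair per kilobase in the EtOH control, 23.9 ± 1.12% in the labelled KO and 27.6 ± 0.806% in the 4OHT control. The phosphate carrier Slc25a3 was also highest in the 4OHT control, at 340.1 ± 3.66 CPM in the EtOH control, 355 ± 19.7 in the labelled KO and 389.6 ± 11.4 in the 4OHT control. Its call against the 4OHT control (log2 fold change -0.135, adjusted p = 0.0424) was lost in 11 of 16 alternatives, at up to 0.409, among them the fits without any 1 EtOH control library, labelled KO replicate 1 or 3, or 4OHT control replicate 1 or 2. Of the calcium-regulated ATP-Mg/phosphate carriers, Slc25a23 fell (log2 fold change -0.22; adjusted p = 0.045) and Slc25a25 rose (0.27; adjusted p = 0.00875) against the 4OHT control, while Slc25a24 and Slc25a41 were called in neither comparison, although the block called Slc25a24 higher against the 4OHT control (log2 fold change 0.38; adjusted p = 0.0626 without the block and 0.011 with it). The call of Slc25a23 was lost in 12 of 16 alternatives, at up to 0.188, and leaving out any 1 library other than labelled KO replicate 3 or 4OHT control replicate 1 ended it, while that of Slc25a25 was lost without labelled KO replicate 2 (0.052). The 3 carriers highest per kilobase, Slc25a5, Slc25a4 and Slc25a39, together held 39.5% to 40.1% of all Slc25 counts in the EtOH control, 36.4% to 37.1% in the labelled KO and 39% to 40% in the 4OHT control. These shares are of counts not divided by length, in which Slc25a3 stood above Slc25a4 and Slc25a39 in every group. All Slc25 transcripts summed to 2203 to 2210, 2051 to 2166 and 2329 to 2336 CPM.

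Of 9 cofactor and nucleotide carriers, 2 were called against the EtOH control (22.2% beside 27.2% of all genes) and 1 against the 4OHT control (11.1% beside 38.9%), each of them higher. The replicate block gave 3 risen against the EtOH control, and 2 risen and 1 fallen against the 4OHT control (33.3% beside 51.4% of all genes under the block). Slc25a17, which carries coenzyme A and FAD into peroxisomes, was at 44.5, 45.6 and 45.1 CPM in the EtOH control, 55.7, 57.4 and 56.4 in the labelled KO, and 41.1, 40.9 and 42.4 in the 4OHT control. Replicates lay close together and the labelled KO was above every control. It rose by 25.3% (log2 fold change 0.325, SE 0.054; adjusted p = 0.000415) and 36.2% (0.45, SE 0.055; adjusted p = 1.04e-05), and both calls held under all 16 alternatives. Slc25a36, which carries pyrimidine nucleotides, was at 138 ± 6.32 CPM in the EtOH control, 165 ± 14.04 in the labelled KO and 156 ± 4.48 in the 4OHT control. It rose against the EtOH control (log2 fold change 0.26; adjusted p = 0.00589, at most 0.034 under any alternative) and was at 0.08 against the 4OHT control (adjusted p = 0.31). Its partner Slc25a33 was not called, and made up 33.8 ± 2.42%, 27.8 ± 2.47% and 26.8 ± 0.305% of the pair per kilobase in the EtOH control, labelled KO and 4OHT control. The NAD carrier Slc25a51 was at 39.3 ± 1.61 CPM in the EtOH control and 39.8 ± 0.401 in the labelled KO (log2 fold change 0.02, SE 0.060; adjusted p = 0.868). The mitochondrial coenzyme A carrier Slc25a42 was at 0.35 against the EtOH control (adjusted p = 0.0503, and 0.0115 with the block) and at 0.27 against the 4OHT control (adjusted p = 0.101, and 0.0424 with the block). Slc25a16 was at -0.165 against the 4OHT control (adjusted p = 0.121), and was called lower there with the block (adjusted p = 0.0417) and without labelled KO replicate 1. Slc25a26 for S-adenosylmethionine and Slc25a32 for folate and FAD were called in neither comparison.

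Of the uncoupling-protein-like carriers, Slc25a30 was at 10.7 ± 0.626 CPM in the EtOH control and at 14.5 ± 1.52 in the labelled KO, and it rose (log2 fold change 0.45, SE 0.105; adjusted p = 0.00512, at most 0.0331 under any alternative). It was at 0.19 against the 4OHT control (adjusted p = 0.168). Slc25a14 was at 0.40 against the EtOH control (adjusted p = 0.118, and 0.0395 with the block), and Slc25a27 was called in neither. Slc25a20, which exchanges acylcarnitines for carnitine in fatty acid oxidation, was at 0.22 (SE 0.168; adjusted p = 0.36). The block, which takes up differences that same-numbered libraries share, gave it an adjusted p of 0.00232, and 0.0392 against the 4OHT control, where it was at 0.14.

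None of the 8 tested orphan or outer membrane members was called against the EtOH control, but 2 rose and 2 fell against the 4OHT control (50% beside 38.9% of all genes). The lack of a call does not show that these members were unchanged. Against the EtOH control Slc25a48 was at 0.36 (SE 0.298) and Slc25a43 at -0.28 (SE 0.226). Slc25a34, whose substrate is not settled, was at 1.32, 1.27 and 1.08 CPM in the EtOH control, 1.23, 1.95 and 1.14 in the labelled KO, and 4.60, 4.52 and 2.83 in the 4OHT control. The 4OHT control stood alone, and the other groups overlapped. It was 3.22-fold higher in the 4OHT control than in the EtOH control (log2 fold change 1.685, SE 0.249; adjusted p = 0.000192) and 2.75-fold lower in the labelled KO than in the 4OHT control (log2 fold change -1.46, SE 0.242; adjusted p = 0.000195). Slc25a46, an outer membrane protein of mitochondrial fission and fusion, fell against the 4OHT control (log2 fold change -0.325; adjusted p = 0.0042) and was at -0.05 against the EtOH control (adjusted p = 0.674). Slc25a48 (1.33; adjusted p = 0.00601) and Slc25a53 (0.49; adjusted p = 0.017) rose against the 4OHT control, the latter call being lost with DESeq2 and without labelled KO replicate 1 (0.0757) or 4OHT control replicate 2 or 3. Slc25a48 was at only 1.29 ± 0.224 CPM in the labelled KO and 0.506 ± 0.143 in the 4OHT control.

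The 2 controls differed from each other in 8 carriers, 6 higher and 2 lower in the 4OHT control, or 18.2% of the members beside 18.4% of all genes (9.66% higher and 8.75% lower). With the replicate number as a block, 9 were higher and 6 lower in the 4OHT control, or 34.1% of the members beside 32.8% of all genes (17% higher and 15.8% lower). The block added Slc25a30, Slc25a36 and Slc25a44 to the higher members, at 0.25, 0.17 and 0.19 on the log2 scale (adjusted p = 0.0253, 0.00411 and 0.0374). It added Slc25a18, Slc25a28, Slc25a33 and Slc25a48 to the lower ones, at -0.60, -0.20, -0.30 and -0.97 (adjusted p = 0.0346, 0.0344, 0.0103 and 0.0276). In CPM the 4OHT control libraries were all above those of the EtOH control for 10 carriers and all below for 11, beside 18.1% and 17% of all genes. The 6 higher without the block were Slc25a3, Slc25a4, Slc25a11, Slc25a15, Slc25a34 and Slc25a46, and each of them was also called lower in the labelled KO against the 4OHT control, with the 4OHT control libraries shared by both comparisons. Without 4OHT control replicate 2 the calls of Slc25a3 (adjusted p = 0.0616) and Slc25a46 (0.051) were lost, and that of Slc25a46 also without 4OHT control replicate 3 (0.129) or any 1 EtOH control library. The 2 lower members without the block were Slc25a12 and Slc25a43. Slc25a43, an orphan carrier, was at 2.96, 1.97 and 1.97 CPM in the EtOH control, 1.78, 1.61 and 2.34 in the labelled KO, and 1.23, 1.59 and 1.25 in the 4OHT control. EtOH control replicate 1 was the highest and the 4OHT control lay below the EtOH control. Its log2 fold change was -0.78 (SE 0.242; adjusted p = 0.0343), lost without EtOH control replicate 1 (0.176) or 4OHT control replicate 1 (0.0974) or 3 (0.101) and with DESeq2 (0.0678). Genotype and drug cannot be told apart in this comparison.

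The machinery that inserts carriers into the inner membrane held a larger change than any carrier. Of 12 tested genes of carrier import, 1 rose and 6 fell against the EtOH control (58.3% beside 27.2% of all genes, and with the block 2 and 7, 75% beside 42.8%). Against the 4OHT control 2 rose and 2 fell (33.3% beside 38.9%, and with the block 3 and 5, 66.7% beside 51.4%). Agk, the acylglycerol kinase that is also a subunit of TIM22, was at 20.3, 20.8 and 20.7 CPM in the EtOH control, 5.39, 5.79 and 3.64 in the labelled KO, and 25.1, 25.8 and 24.5 in the 4OHT control. All 3 labelled KO libraries were far below every control. It was 4.14-fold lower than in the EtOH control (log2 fold change -2.05, SE 0.122; adjusted p = 4.05e-09) and 5.05-fold lower than in the 4OHT control (-2.34, SE 0.121; adjusted p = 4.36e-10). The TIM22 subunit Timm29 rose against both controls, from 33.9 ± 0.566 and 32.2 ± 0.571 to 46.4 ± 1.88 CPM (log2 fold change 0.45 and 0.53; adjusted p = 4.92e-05 and 5.06e-06). Timm22, the channel subunit, rose against the 4OHT control (0.44; adjusted p = 0.00182) and was at 0.21 against the EtOH control (adjusted p = 0.109, and 0.0173 with the block). The chaperone Timm9 fell against both (-0.475 and -0.507; adjusted p = 0.00216 and 0.000746), and Timm8a1, Timm13, Tomm22 and Tomm40 fell against the EtOH control and were not called against the 4OHT control, where the block called Tomm22 (adjusted p = 0.00465) and Tomm40 (0.0481) lower.

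**Figure D4:**
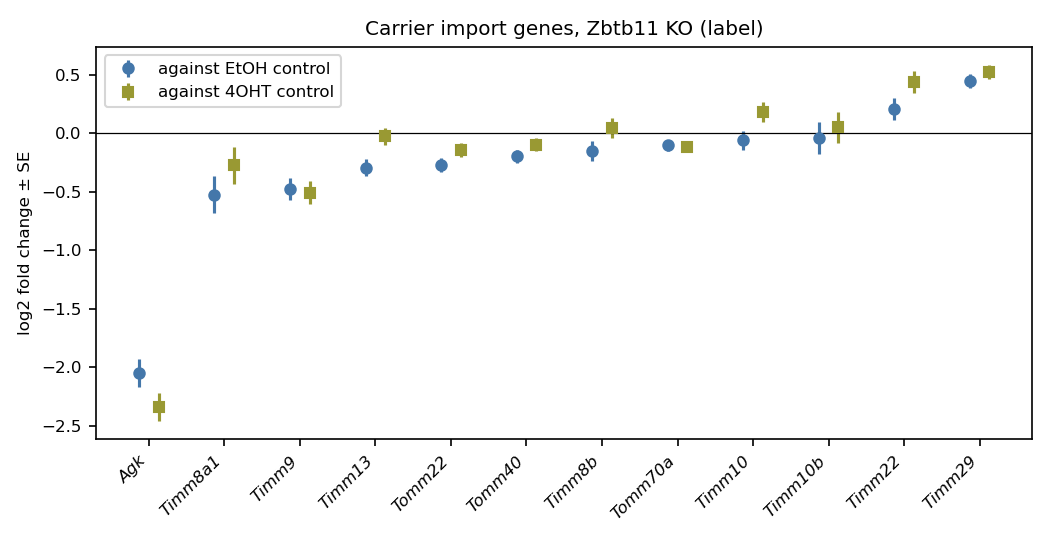
Log2 fold change ± SE of 12 carrier import genes in the labelled KO against the EtOH control (circles) and against the 4OHT control (squares). Agk lies at -2.05 and -2.34, all other genes between -0.52 and 0.53.

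Of 42 enzymes that make or use the carried solutes, 8 rose and 13 fell against the EtOH control (50% beside 27.2% of all genes), and 9 rose and 11 fell against the 4OHT control (47.6% beside 38.9%). With the block 10 rose and 18 fell in each comparison (66.7%, beside 42.8% and 51.4% of all genes). Among them, Nmnat1, which makes NAD in the nucleus, was at 10.7, 9.49 and 9.74 CPM in the EtOH control, 23.6, 22.4 and 24.65 in the labelled KO, and 6.50, 6.05 and 6.58 in the 4OHT control. It rose by 2.36-fold (adjusted p = 4.69e-08) and 3.69-fold (adjusted p = 3.22e-10), beside an NAD carrier that was not called, and was lower in the 4OHT control than in the EtOH control (log2 fold change -0.64; adjusted p = 0.00033). Gclc, the rate-limiting enzyme of glutathione synthesis, rose against both controls (log2 fold change 0.335 and 0.402; adjusted p = 0.000283 and 2.47e-05), while the glutathione carriers fell. The other listed glutathione genes were mixed. Gclm and Gss rose against the 4OHT control and were at 0.149 and 0.125 against the EtOH control (edgeR adjusted p = 0.105 and 0.265). Gsr fell against the EtOH control (-0.159, edgeR adjusted p = 0.0305) and was not called against the 4OHT control. Acly, which cleaves the citrate that Slc25a1 exports, fell with it (-0.19 and -0.26; adjusted p = 0.012 and 0.000977). The mitochondrial folate enzyme Mthfd2 fell too (-0.454 and -0.345; adjusted p = 0.000228 and 0.00119). Of 25 other mitochondrial membrane transporters, 1 rose and 5 fell against the EtOH control (24% beside 27.2% of all genes, and with the block 5 and 6, 44% beside 42.8%), and 4 rose and 8 fell against the 4OHT control (48% beside 38.9%). Those that fell against the EtOH control included the serine carrier Sfxn1 (-0.33; adjusted p = 0.00194) and the outer membrane channel Vdac2 (-0.20; adjusted p = 0.00779), both of which also fell against the 4OHT control. The carrier-fold genes with other symbols, Ucp2, Mtch1 and Mtch2, were not called against the EtOH control, where the block called Mtch1 lower (log2 fold change -0.18; adjusted p = 0.00435), and all 3 fell against the 4OHT control.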

How the data were processed

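Per the labels' protocols, ribosomal RNA was depleted from total RNA before the making of directional libraries. The deposited files, 1 for each library, hold the authors' unnormalized counts of reads per gene. The submitters' processing notes name STAR, HTSeq, edgeR, cutadapt, Bowtie 1.1.2, MACS2, DiffBind and build mm9 without roles, and the sources used here do not give the strand setting of counting. Of 37310 gene rows, 32620 matched a GENCODE M21 symbol, used for names, exon lengths and transcript words only. Promoter windows come from RefSeq. The 5 closing rows of HTSeq stayed out.

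Tests were edgeR 4.0.16 (limma 3.58.1, R 4.3.3) quasi-likelihood F tests with TMM scaling and filterByExpr, on 9 libraries in 1 fit (6 residual degrees of freedom), with Benjamini-Hochberg adjustment over 16224 genes; a call is an adjusted p under 0.05, and "rose" and "fell" mean calls. The code was tested on simulated data, where 61.2% of the genes changed 1.5-fold were called. The 16 alternatives were RLE scaling, library totals alone, DESeq2 1.42.0, no filter, 1 CPM in 3 libraries, only the 2 groups compared, the replicate block, and leaving out each library. Same-numbered libraries deviated together in all 9 pairs (correlations of 0.192 to 0.427). They therefore appear paired, which comes from the data, not the labels. The main fit leaves this pairing out, and only the block takes it up. Against the EtOH control the main fit called 27.2% of all genes and the block 42.8%. Replicates may be partly technical, and p-values measure only the spread between these libraries.

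Members and lists were chosen with earlier results of these data known. Values in every library are given for members called the same way against both controls, for the 3 highest per kilobase in the EtOH control, and for those called at 1.5-fold or more between the controls. From each context list, up to 3 called genes with the smallest p were to be named. Others named beside them were chosen after their values were seen. Values of 1 member and 1 context gene are not reported here.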

Additional observations from a re-analysis of the deposited data

How the results depend on the processing

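No call of a carrier changed direction: of 43 calls recomputed under 16 alternatives, 24 held in all of them and 19 were lost in some, which is 105 of 688 values. Against the EtOH control, leaving out 1 library gave 4 to 7 carriers risen and 4 to 9 fallen, with 4 fallen without labelled KO replicate 1 and 5 without EtOH control replicate 1. Against the 4OHT control it gave 4 to 8 risen and 10 to 12 fallen, with 4 risen without labelled KO replicate 1, labelled KO replicate 2 or 4OHT control replicate 3. Between the controls it gave 4 to 7 higher and 1 to 3 lower in the 4OHT control, with 1 lower without 4OHT control replicate 1 or 3. These fits have fewer libraries for every gene, and the shares of all genes called in them are not given here. The counts therefore describe the fits and not a trait of the carriers.

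Library totals as the only scaling gave 4 fallen against the EtOH control and 13 risen against the 4OHT control. They put Zbtb11 at a log2 fold change of 0.16 against the EtOH control (edgeR adjusted p = 0.0134). Under this scaling the median over all genes was 0.085 against the EtOH control (0.014 in the main fit). Against the 4OHT control it was 0.104 (0.021 in the main fit). DESeq2 gave 5 risen against the 4OHT control and 1 lower between the controls. The shares of all genes called with library totals or DESeq2 are not given here either. The replicate block gave 9 risen and 11 fallen against the EtOH control, 11 and 15 against the 4OHT control, and 9 higher and 6 lower between the controls, lost no call, and called Zbtb11 (log2 fold change 0.086, adjusted p = 0.032). With the block, Slc25a20, Slc25a24 and Slc25a42 were added to the risen and Slc25a16 and Slc25a22 to the fallen against the 4OHT control. With the longest transcript as length, Slc25a5, Slc25a4 and Slc25a39 stood at 379, 102 and 125 CPM per kilobase. The causes of these differences were not tested. Carriers under 1 CPM rest on few reads, which limits what could be detected for them.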
